A study of Mus musculus with 17 samples.

Results

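Hox genes encode homeodomain transcription factors that give cells their position along the body axis. In the mouse they lie in 4 clusters, HoxA, HoxB, HoxC and HoxD, in which the order of the genes follows the order of their domains of activity in the embryo, and genes of like number in different clusters are paralogs. Outside the tissues that use them, the clusters are typically kept silent by Polycomb complexes, and their promoters are thought of as rich in CpG dinucleotides. H3.3 is a histone variant that is placed on DNA outside of replication, often at promoters, and ARID1A belongs to BAF, a complex that remodels chromatin. To examine whether H3.3 peaks lie at the promoters of a developmental gene family in meiotic male germ cells with and without ARID1A, all 39 protein-coding genes named Hoxa, Hoxb, Hoxc or Hoxd followed by a number were taken from the 21938 protein-coding genes of the GENCODE M21 annotation on 21 chromosomes. A gene was counted as having a peak if any base of a row of a deposited H3.3 peak list lay within 1 kb of the start of any of its transcripts. This choice of genes used only symbols and no measured value, though it was made with earlier results of these data known.

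The series holds 17 CUT&RUN libraries of mouse pachytene spermatocytes, of which 5 targeted H3.3 (2 of Arid1a WT, 3 of Arid1a cKO). In CUT&RUN, an antibody brings a nuclease to a chromatin protein in permeabilised cells, and the DNA that is cut free is sequenced. The other 12 libraries were made with ARID1A antibodies, and no file of them was used here. Cells were purified by unit gravity sedimentation (Sta-Put) from pooled testes of adult males and cryopreserved. Arid1a cKO males were Arid1a fl/fl; Stra8-Cre Tg/0, in which Cre is expressed from spermatogonia onward in the testis, and Arid1a WT males were Arid1a fl/fl or Arid1a fl/+ without Cre, so the controls also carried floxed alleles. The floxed line was kept on a CD1 background. Excision by Stra8-Cre was incomplete, so fractions from Arid1a cKO testes could hold cells that still had ARID1A. The files used here hold no expression values, so neither the silence of the Hox genes nor the identity of the cells could be checked from them. The authors also reported RNA-seq of purified pachytene spermatocytes of both genotypes, which was not used here.

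Each genotype was represented by 1 combined peak list. That of Arid1a WT had 228 rows, of which 4 were autosomal, and that of Arid1a cKO had 12183 rows in 6552 separate regions. How deeply the libraries were sequenced is unknown, and combined lists allow neither a spread between replicates nor a test between genotypes. The lists also differed in how weak a peak they held. The lowest fold enrichment over IgG was 4.85 in the WT list, while 76.8% of the cKO regions had a fold below that. All values below are therefore counts and positions, and 95% Wilson intervals cover counting error only and treat genes as independent.

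Among the 39 Hox genes, 5 had an H3.3 peak near a start in Arid1a cKO, and none had one in Arid1a WT. The 4 described here are Hoxa4, Hoxa7, Hoxb9 and Hoxd8. Hoxa4, Hoxa7 and Hoxd8 belong to the middle groups that act in the neck and trunk, and Hoxb9 acts at the rib-bearing part of the axis. DNA under these peaks is shown first, with the GC range of the stretches shown. The values given later for single peaks are of whole peaks, which for Hoxa4, Hoxa7 and Hoxd8 are longer than these stretches. The letters are those of the part shared by all rows of a peak, without its untranslated exon stretches, on the strand of the Hox gene from 5′ to 3′ in GRCm38.p6, with each CpG in capitals.

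The Hoxa4 peak crossed the start of the gene, so it is given as the bases before the start (chr6:52191754-52191827) and the first coding bases (chr6:52191552-52191688), both on the minus strand.
Hoxa4 upstream: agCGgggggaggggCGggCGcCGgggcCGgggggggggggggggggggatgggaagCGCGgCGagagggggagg
Hoxa4 coding: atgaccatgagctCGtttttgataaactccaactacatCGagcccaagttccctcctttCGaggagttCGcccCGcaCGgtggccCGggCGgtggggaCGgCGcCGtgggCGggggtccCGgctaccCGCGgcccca

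The Hoxa7 peak held coding bases (chr6:52217128-52217199) and bases outside the coding and untranslated parts (chr6:52216984-52217029), both on the minus strand.
Hoxa7 coding: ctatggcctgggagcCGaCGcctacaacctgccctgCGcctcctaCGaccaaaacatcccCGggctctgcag
Hoxa7 not coding: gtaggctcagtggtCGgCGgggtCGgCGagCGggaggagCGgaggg

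The Hoxb9 peak lay in an intron (chr11:96272484-96272715, plus strand).
Hoxb9 intron: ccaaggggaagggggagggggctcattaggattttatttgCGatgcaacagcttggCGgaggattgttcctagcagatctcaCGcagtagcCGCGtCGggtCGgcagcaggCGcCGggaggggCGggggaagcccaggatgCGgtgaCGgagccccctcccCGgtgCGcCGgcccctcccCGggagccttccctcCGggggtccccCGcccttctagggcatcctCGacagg

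Of the Hoxd8 peak, the part outside untranslated exons is shown (chr2:74704725-74704904, plus strand).
Hoxd8 peak: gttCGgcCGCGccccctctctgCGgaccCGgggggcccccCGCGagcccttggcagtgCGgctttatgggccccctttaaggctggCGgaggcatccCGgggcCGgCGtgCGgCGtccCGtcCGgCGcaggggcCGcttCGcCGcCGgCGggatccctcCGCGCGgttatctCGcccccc

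The GC content of the 6 stretches ran from 65.3% to 87.8%. The Hoxd8 stretch held 26 CpG in 180 bases, while the promoter just before the main start of Hoxd8, which the peak did not reach, held 6 CpG in 250 bases with a GC content of 44.4%. This promoter (chr2:74704365-74704614, plus strand, RefSeq) is shown for contrast with the peak that begins 48 bp inside the gene.
Hoxd8 promoter: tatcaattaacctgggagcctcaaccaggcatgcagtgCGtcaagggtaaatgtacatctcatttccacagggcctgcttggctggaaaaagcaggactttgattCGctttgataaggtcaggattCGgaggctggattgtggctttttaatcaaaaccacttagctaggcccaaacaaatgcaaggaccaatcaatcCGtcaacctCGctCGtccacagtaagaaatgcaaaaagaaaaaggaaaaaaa

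A CpG-dense promoter without any H3.3 row is shown beside them. Hoxa13, which acts at the tail end of the axis and in the limb and genital buds, had the most CpG dinucleotides of the 39 genes around its main start and was chosen for display after its values were seen. Its promoter (chr6:52260881-52261130, minus strand, RefSeq) held 35 CpG in 250 bases.
Hoxa13 promoter: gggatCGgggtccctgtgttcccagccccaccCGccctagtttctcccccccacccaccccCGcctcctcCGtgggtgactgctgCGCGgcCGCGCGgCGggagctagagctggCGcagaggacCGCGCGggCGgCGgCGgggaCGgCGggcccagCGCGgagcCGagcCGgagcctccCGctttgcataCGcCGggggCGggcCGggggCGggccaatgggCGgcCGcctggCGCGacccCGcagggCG

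Hoxa4 had the widest peak. It covered chr6:52191015-52191827 (813 bp), spanned the start with untranslated and coding exon, and had a fold of 3.89 over IgG with a -log10 q of 3.98, where the fold is the H3.3 over background pileup averaged over the peak and q is the peak caller's adjusted p. The list held it as 2 rows, of 813 bp and 276 bp, that shared the end upstream of the gene. The peak was wider than 86.3% of the cKO regions, and its GC content of 74.5% was above that of 90.2% of them, with 101 CpG over its length. Its fold was near the middle, above 49.1% of the 6552 cKO regions. It also lay inside the bodies of the longest Hoxa3 transcripts and of the antisense RNA Hoxaas3, whose starts were further away than 1 kb.

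Hoxa7 had the narrowest peak, at chr6:52216984-52217199 (216 bp). Its fold was 3.11 and its -log10 q 2.47, and it lay 253 bp downstream of the nearest start and 306 bp downstream of the main start. It overlapped coding and untranslated exon of Hoxa7. Its fold was above 17.9% of the cKO regions. With curated RefSeq transcripts alone, Hoxa7 had no row within 1 kb of a start.

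Hoxd8 had a peak at chr2:74704663-74704947 (285 bp) with a fold of 3.55 and a -log10 q of 2.39. It covered one of the 3 annotated starts of the gene and began 48 bp downstream of the main start, in untranslated exon, and it lay inside the body of the antisense RNA Hoxd3os1. Its GC content of 74.0% was above that of 87.8% of the cKO regions. Its fold was above 35.0% of them.

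Hoxb9 had the weakest and the most distant of the 5 peaks. It covered chr11:96272484-96272715 (232 bp) in an intron, 961 bp downstream of the nearest start and 1027 bp downstream of the main start, so it was the member just inside the 1 kb limit. The fold was 2.91 and the -log10 q 2.11. The same pair of values was carried by 565 peak names of the cKO list, 8.64% of all names, and the fold was above 4.76% of the cKO regions. The member just outside the limit was Hoxa3, a gene of the neck and pharyngeal arches, whose nearest start lay 3648 bp from the Hoxa7 peak.

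The Hox peaks were at the low side of the cKO list. Their median fold was 3.55 and their median width 285 bp, beside 3.92 and 417 bp over all cKO regions. Among genes with a peak, the median of the highest fold was 3.55 for the 5 Hox genes and 4.12 for 6145 autosomal coding genes. A -log10 q of at least 3 was reached at 2 of the 5 Hox genes, Hoxa4 among them, and at 70.5% of the autosomal genes with a peak. A -log10 q of at least 5 was reached at 0 of the 5 and at 32.4% of the autosomal genes. The peaks of Hoxa7, Hoxb9 and Hoxd8 were written as 1 row each, as were 13.8% of the peak names in the list. No Hox peak reached the lowest fold of the WT list, 4.85, which 8.32% of autosomal coding genes reached in Arid1a cKO. By fold, the difference between the lists at Hox genes therefore cannot be told apart from the weaker peaks that the cKO list holds. The lowest -log10 q of the WT list was 2.20. The peaks of Hoxa4 (3.98), Hoxa7 (2.47) and Hoxd8 (2.39) were above it and that of Hoxb9 (2.11) was below it.

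The share of Hox genes with a cKO peak was below that of coding genes in general. It was 12.8% (5 of 39, 95% Wilson interval 5.60 to 26.7%), beside 29.5% of 20807 autosomal coding genes (28.9 to 30.2%), and the intervals do not overlap. With curated RefSeq transcripts it was 3 of 39, without Hoxa7 and Hoxb9, beside 29.7% of the autosomal genes. In Arid1a WT the share was 0 of 39, with a Wilson interval up to 8.97% (7.69% by the limit of 3 counts that a count of 0 allows), beside 0% of the 20807 autosomal genes. The only WT row on the 4 chromosomes with a cluster was on chromosome 6, 90.4 Mb from Hoxa13, the nearest Hox gene to it. A count of 0 in the WT list is therefore shared by every autosomal coding gene and is not particular to the Hox genes.

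**Figure D1:**
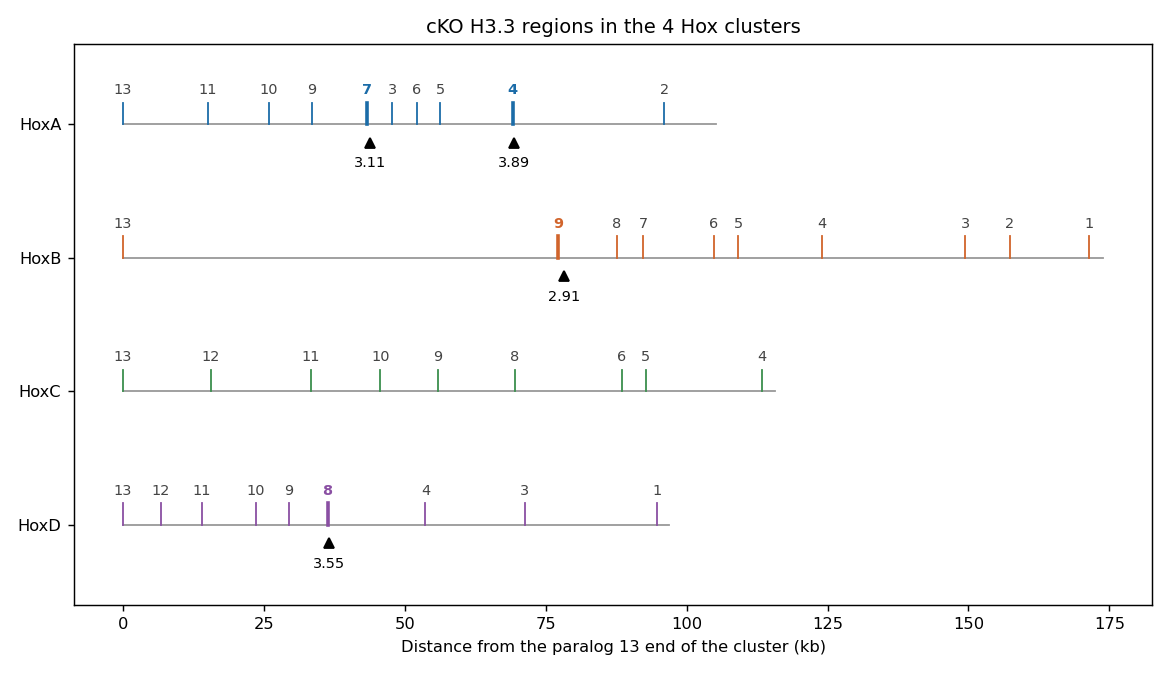
Positions of 38 Hox genes and of 4 cKO H3.3 peaks in the 4 clusters, drawn to scale as distance in kb from the paralog 13 end. Coloured ticks with a paralog number are the main transcript starts, bold ones have a peak within 1 kb of a start, and black triangles are the peaks with their fold over IgG, from 2.91 at Hoxb9 to 3.89 at Hoxa4. Hoxa3 is drawn at the start of its main transcript, which begins beyond Hoxa6. HoxC has no triangle.

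The peaks were unequally spread over the clusters. HoxA (chr6:52155590-52260880, 105 kb, minus strand) held 5 rows in 3 peaks and had 3 of its 11 genes called, a share of 27.3%. HoxB (chr11:96194316-96368256, 174 kb, plus strand) held 1 row and had 1 of 10 genes called. HoxD (chr2:74668310-74765142, 96.8 kb, plus strand) held 1 row and had 1 of 9 genes called. HoxC (chr15:102921103-103036852, 116 kb, plus strand) held no row, and 0 of its 9 genes were called, which the Wilson interval puts at up to 29.9%. The intervals of the 4 clusters overlap, so no cluster can be set apart from another by these counts.

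Seen as stretches of DNA, the clusters were not poor in peaks. The 4 together span 492 kb and held 5 cKO peaks, or 10.2 per Mb, while the autosomes held 2.51 per Mb. Seen per gene, they held 12.8 peaks per 100 Hox genes, while the autosomes held 29.7 regions per 100 coding genes. Of 23381 autosomal windows of the length of HoxA, laid end to end, 1.43% held at least the 3 peaks that it did. All such windows were laid without regard to how many genes they hold, and 80.7% of those of HoxA length held no peak. For HoxB and HoxD, each with 1 peak, 27.5% and 18.2% of the windows of their length held at least as many. Of 21266 windows of the length of HoxC, 79.3% held none, as HoxC did.

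Around the clusters, 5 of the 8 nearest cKO rows lay at the start of a coding gene. Beside HoxA they lay at the starts of Skap2, which encodes an adaptor protein (143 kb away, fold 4.28), and of Hibadh, a mitochondrial enzyme of valine breakdown (379 kb, fold 4.87). Beside HoxD they lay at the starts of Lnpk, which shapes the endoplasmic reticulum (89.1 kb, fold 4.24), and of Mtx2, a mitochondrial import protein (60.6 kb, fold 3.26). Beside HoxB one lay at the start of Snx11, a sorting nexin (409 kb, fold 7.12), and the other 9300 bp from that of Ttll6, a tubulin-modifying enzyme (69.8 kb, fold 3.03). Beside HoxC neither lay at a coding start, with one 24735 bp from Calcoco1 (174 kb from the cluster, fold 3.28) and one 5232 bp from Gpr84 (268 kb, fold 5.39). The gap without a row around HoxC was 558 kb long.

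The distance from a Hox gene to the nearest cKO row had a median of 28.6 kb and a range from 0 to 271 kb, beside a median of 40.6 kb for autosomal coding genes. In HoxA the median was 8.26 kb, from 0 at Hoxa4 to 43.6 kb at Hoxa13. In HoxD it was 12.7 kb, from 0 at Hoxd8 to 58.0 kb at Hoxd1, a gene of the embryonic head and nervous system. In HoxB it was 38.1 kb, from 0.961 kb at Hoxb9 to 93.0 kb at Hoxb1, which sets the identity of a hindbrain segment. In HoxC it was 220 kb, from 174 kb at Hoxc13, a regulator of hair and nail, to 271 kb at Hoxc4. The distances of neighbouring genes share a row, so they are not independent.

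**Figure D2:**
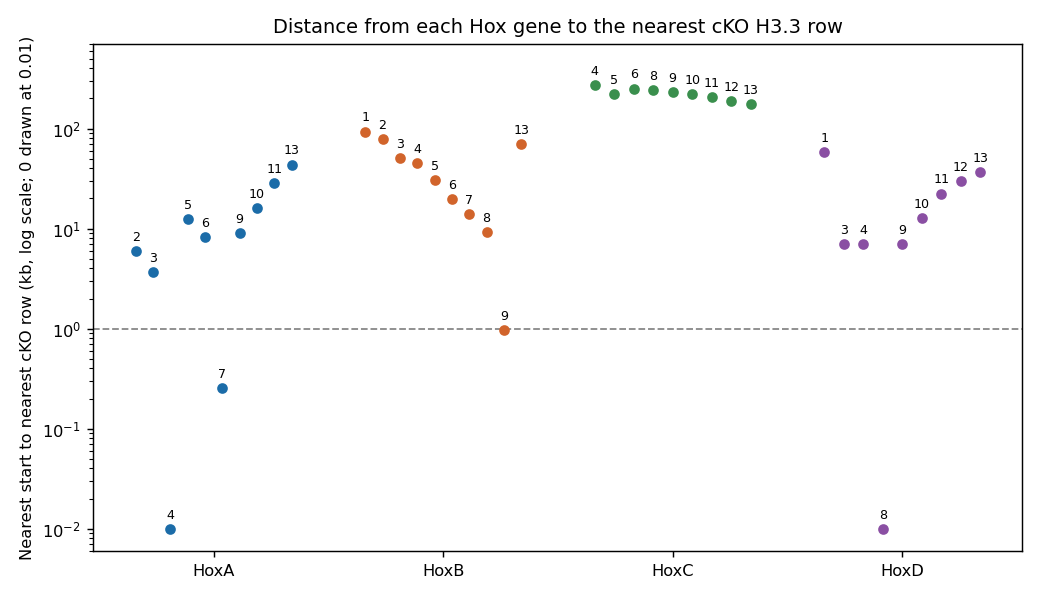
Distance in kb (log scale) from the nearest annotated start of each of 38 Hox genes to the nearest row of the cKO list, by cluster, with the paralog number above each point. The dashed line is the 1 kb limit, and a distance of 0 (Hoxa4 and Hoxd8, whose peaks cover a start) is drawn at 0.01. The points of HoxC all lie between 174 and 271 kb.

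No paralog group had more than 1 member with a peak. With only 5 of the 39 genes called, this cannot be read as a trait of paralogs. Hoxb4, Hoxc4 and Hoxd4 had none beside Hoxa4, Hoxb7 had none beside Hoxa7, Hoxa9, Hoxc9 and Hoxd9 had none beside Hoxb9, and Hoxb8 and Hoxc8 had none beside Hoxd8.

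The description of Hox promoters as CpG-rich was met only in part. With CpG-rich set as a GC content of at least 55% and an observed over expected CpG ratio of at least 0.75 in 500 bp either side of the main start, 13 of the 39 Hox genes were CpG-rich (33.3%), as were 26.6% of the autosomal coding genes. With looser limits of 50% and 0.6, 24 were. The Hox genes had a median of 56 CpG in this 1 kb, from 13 at Hoxd4 to 126 at Hoxa13, beside 44 for autosomal coding genes. CpG-rich starts were found at 3 of 11 genes in HoxA (27.3%), 4 of 10 in HoxB (40%), 2 of 9 in HoxC (22.2%) and 4 of 9 in HoxD (44.4%). The order of these shares was not that of the peaks, since HoxA held 3 peaks and HoxB and HoxD 1 each.

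The Hox genes with a peak had CpG counts in the upper part of the family. Hoxd8 had 70 CpG in the 1 kb, Hoxa7 75, Hoxb9 90 and Hoxa4 125, while the 34 without a peak had a median of 49. The groups overlap, since Hoxa13 with 126, Hoxd13 with 118, Hoxd11 with 113 and Hoxd1 with 94 had no peak. Hoxd13 and Hoxd11 shape the limb and the tail end of the body. Over all autosomal coding genes the share with a peak was also larger where CpG were more frequent, so genes of like composition are the closer background.

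Against that background the Hox genes were again low. Of the 5540 autosomal coding genes with a CpG-rich start, 63% had a cKO peak (61.7 to 64.3%), while 3 of the 13 CpG-rich Hox genes had one, Hoxa4, Hoxa7 and Hoxb9 (23.1%, interval 8.18 to 50.3%). Of the 26 Hox genes whose start was not CpG-rich, 2 had a peak, Hoxd8 among them (7.69%, interval 2.14 to 24.1%), beside 17.4% of such autosomal genes (16.8 to 18.0%). For CpG-rich starts the intervals do not overlap, and for the others they do. With the genes ordered by CpG count and divided into 10 equal classes, 1 of 7 Hox genes had a peak in class 7, beside 47.9% of all genes there. It was 2 of 8 in class 8 beside 59.0%, 1 of 2 in class 9 beside 62.5% and 1 of 4 in class 10 beside 60.6%. None of 5 in class 6 had one, beside 34.6%, and none of 7 in class 5, beside 13.5%. The other 6 Hox genes, also without a peak, were in classes 3 and 4, where 6.25% and 6.05% of all genes had one. The shares of the classes that the 39 genes fell in add up to 14.8 genes with a peak, beside the 5 that were found.

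**Figure D3:**
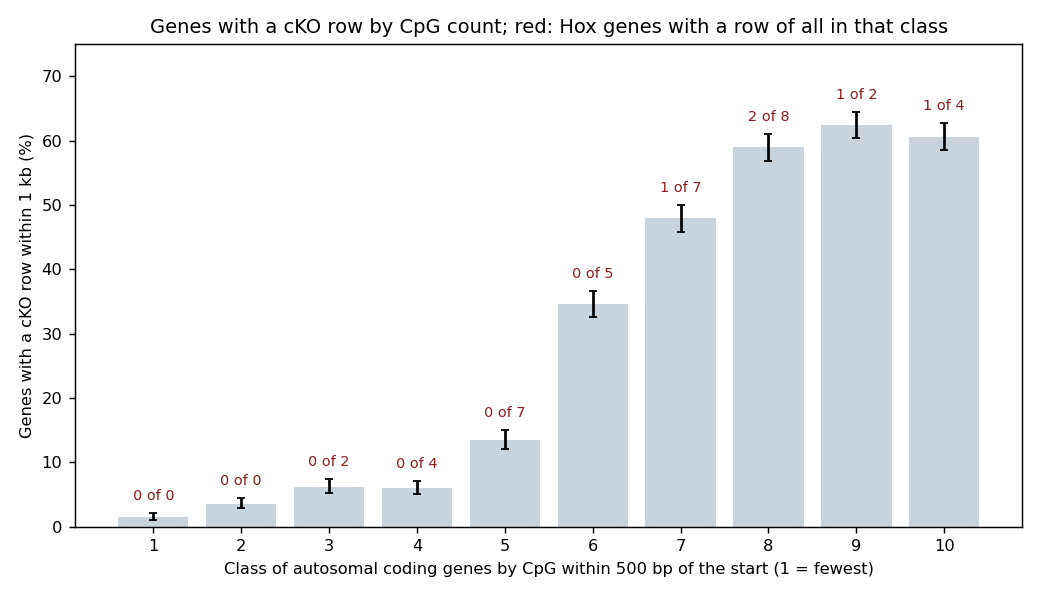
Share of autosomal coding genes with a cKO row within 1 kb of a start (bars, in percent, with 95% Wilson intervals) by class of CpG count (10 classes of equal size) in 1 kb around the main start, from the fewest to the most. Red labels give the Hox genes with a row of all Hox genes in that class. The bars run from 1.54% in class 1 to 62.5% in class 9, and the Hox counts in classes 7 to 10 are 1 of 7, 2 of 8, 1 of 2 and 1 of 4.

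The sequence around Hox starts was nearly unique in the genome. Of the 50-mers in the 2 kb around each start, at least 95.7% occurred once in the genome at every one of the 39 genes, and 39 of 39 starts had at least 95% unique 50-mers beside 80.9% of autosomal coding starts. Promoter sequences of 22 of the 39 Hox genes were held by the RefSeq table, and 4 short motifs were counted on both strands in these 300-base windows and in those of 16522 coding genes. The CCAAT box (letters CCAAT) was in 14 of 22 Hox windows (63.6%) beside 38.7% of all. The TATA box (TATAAA) was in 3 (13.6%) beside 12.9%, the GC box (GGGCGG) in 9 (40.9%) beside 48.0%, and CGCG in 13 (59.1%) beside 50.9%. GGGCGG and CGCG can share bases. These are matches of letters only, and 17 Hox genes are not covered by them.

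Between the outer ends of the clusters lie 46 further genes, 43 of them not protein-coding. Of these 43, 2 had a cKO row within 1 kb of a start, and both lie in HoxA at the same peak. None of the 7 microRNA genes had such a row, and neither did the noncoding RNA Hotair in HoxC. The share over all noncoding genes was not counted, so these counts cannot be called high or low.

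The low share at Hox genes was close to that of other developmental homeobox and paired-box genes, of which 7 of 62 had a cKO peak (11.3%, interval 5.58 to 21.5%). These were Nkx6-1 (fold 3.61), Irx2 (3.47), Nkx6-2 (3.45), Pax2 (3.11) and, at 2.91 each, Lhx2, Lhx8 and Six5, all transcription factors of embryonic patterning or organ formation, and their folds lay in the range of the Hox peaks. Lhx2, Lhx8 and Six5 carried the same pair of fold and -log10 q as Hoxb9. Of the CpG-rich starts in this list, 4 of 15 had a peak (26.7%). None of the 6 ParaHox genes, the sister family that includes Cdx2 and Pdx1, had a peak, and neither did the even-skipped genes Evx1 and Evx2, which flank HoxA and HoxD. With so few genes these counts of 0 allow large shares, up to 39.0% and 65.8% by Wilson's interval.

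Higher shares than that of the Hox genes were counted among genes whose products work with or on Hox genes. Of 9 Hox cofactor genes, whose homeodomain proteins bind DNA beside Hox proteins, 4 had a peak (44.4%, interval 18.9 to 73.3%), Pbx4 and Pbx3 with a fold of 4.49 each and Pbx2 and Meis3 with 2.91 each. Of 15 regulators of Hox genes, 10 had a peak (66.7%, interval 41.7 to 84.8%). Most regulators had a CpG-rich start, and 8 of those 12 had a peak (66.7%), beside the 63% of all CpG-rich autosomal genes. Among these were Ezh2 (fold 5.62), the Polycomb methyltransferase, its partners Suz12 (3.51) and Eed (3.55), its relative Ezh1 (3.62), and Rnf2 (4.38), Bmi1 (3.87), Cbx2 (3.12) and Ring1 (2.85) of the other Polycomb complex. The retinoic acid receptor genes Rara (3.56) and Rarg (2.90) had a peak as well. There was none at Kmt2a, the methyltransferase that keeps Hox genes active, or at Wdr5, Rarb, Cyp26b1 or Ctcf. The interval of the regulators does not overlap that of the Hox genes, and that of the cofactors does. The interval of the cofactors also holds the 29.5% of all autosomal coding genes. Pbx2 and Meis3 carried the same pair of fold and -log10 q as Hoxb9. No gene of any of these lists had a WT peak.

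Coding genes next to the clusters and genes of other classes had larger shares than the Hox genes. Of the 40 genes made up of the nearest 5 at each end of each cluster, 17 had a cKO peak (42.5%, interval 28.5 to 57.8%), the strongest at Atf7 and Gm28047, which share a peak with a fold of 8.46, and at Snx11 (7.12). Ribosomal protein genes had a peak at 47 of 77 (61.0%, interval 49.9 to 71.2%), the strongest at Rpl19 (10.3), Rps21 (8.02) and Rps23 (7.95). This list includes the X-linked Rpl10, Rpl36a, Rpl39 and Rps4x, which had no peak, while the general background is of autosomal genes. Replication-dependent histone genes had a peak at 15 of 67 (22.4%, interval 14.1 to 33.7%), the strongest at Hist1h4h (5.19) and, sharing one of 4.19, Hist1h2bc and Hist1h2ac, and this interval overlaps that of the Hox genes. Of CpG-rich starts, 7 of 29 histone genes had a peak (24.1%), close to the 3 of 13 Hox genes (23.1%). It was 10 of 15 (66.7%) for genes next to the clusters and 34 of 46 (73.9%) for ribosomal protein genes, beside 63% of autosomal genes.

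**Figure D4:**
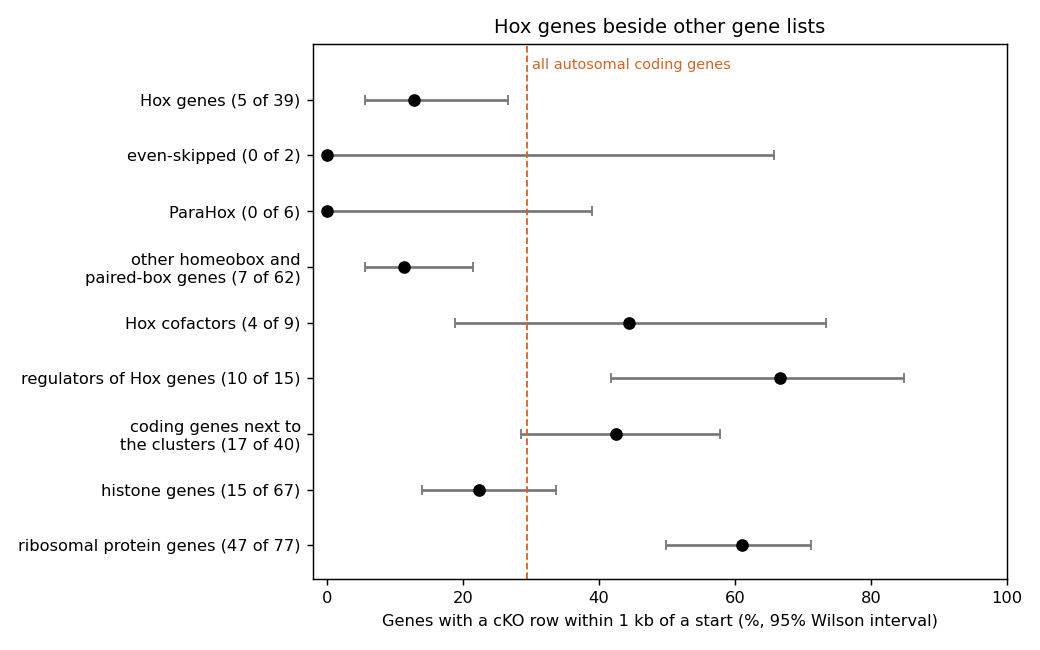
Share of genes with a cKO row within 1 kb of a start in the Hox genes and in 8 comparison lists, in percent, with 95% Wilson intervals as bars and the count of genes in brackets. The dashed line is the share of all autosomal coding genes, 29.5%. The Hox genes (12.8%) and the other homeobox and paired-box genes (11.3%) lie left of the line with their whole intervals, and the regulators and the ribosomal protein genes lie right of it.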

How the data were processed

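H3.3 CUT&RUN was made by the authors on pachytene spermatocytes, 2 Arid1a WT and 3 Arid1a cKO libraries, grouped here by sample title. Reads were trimmed, aligned to mm10 with bowtie2 and cleared of PCR duplicates, and broad peaks were called per library with MACS2 against an IgG library of another study, made from pachytene-enriched cells of juvenile testes. Replicate peaks were then overlapped into 1 deposited list per genotype. Each row of the deposited lists carries a fold enrichment (a ratio of H3.3 to background pileup) and a -log10 q-value. Which library a kept fold comes from is not given in the sources used here. Depth per library is unknown.

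Starts were those of all GENCODE M21 transcripts, and a row counted if any base lay within 1 kb of one. The main start of a gene, used for base composition and the plots, was that of its highest-ranked APPRIS coding transcript. Overlapping rows (at least 1 bp) were merged into regions, called peaks in the text. Sequences came from GRCm38.p6, whose chromosomes are those of mm10, and are 1-based. Values are given for those with a row, for the closest and farthest in each cluster, for the rows next to each cluster, and for genes with a row of each comparison list (all if 10 or fewer, otherwise the 3 with the highest fold). The members and lists were chosen with earlier results of these data known. Alternatives changed the window, the transcripts, the -log10 q minimum, the cluster ends and the CpG limits. Values of 1 member are not reported here by name, and it is counted in the totals. The functions were tested on simulated data. Python 3.11.15 was used with numpy 2.4.6, pandas 2.3.3, numba 0.67.0 and matplotlib 3.10.9.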

Additional observations from a re-analysis of the deposited data

How the results depend on the processing

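Of 37 alternatives on 6 results, 26 kept the value near that reported, all those of the WT counts of 0 among them. The count of Hox genes with a cKO peak, 5, was 4 with a window of 500 bp or with row centres (both without Hoxb9) and 6 with 5 kb or with gene bodies (both with Hoxa3). It was 2 with a -log10 q of at least 3 (Hoxa4 among them), 0 with at least 5, and 3 with curated RefSeq transcripts (without Hoxa7 and Hoxb9), an alternative chosen after seeing the data. The 7 cKO rows in the clusters fell to 4 and 0 with a -log10 q of at least 3 and 5. The counts in the WT list were 0 in all alternatives run. No setting could change them, because the only WT row on the 4 chromosomes lay 90.4 Mb from the nearest Hox gene. These alternatives therefore say nothing on how stable the results are. The share of autosomal coding genes with a cKO peak was 28.9% with 500 bp, 31.8% with 5 kb, 30.9% with gene bodies, and 20.8% and 9.56% with a -log10 q of at least 3 and 5. At looser CpG limits, 54.4% of CpG-rich genes had a peak, beside 5 of 24 Hox genes. With the 5′-most coding start, 2 of 11 CpG-rich Hox genes had one, beside 63.1% of all CpG-rich genes. No paired analysis was possible because replicates had been combined into 1 list, which also kept any single replicate from being left out. The depth behind the lists is unknown, so its part in these counts was not tested.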
